A study of Mus musculus with 4 samples.

Results

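Transcripts of 9 genes that are linked to the fetal liver or to injured liver epithelium were examined in whole livers of 4 mice. The genes were taken by symbol from the deposited expression table, which holds 24138 rows, and each of the 9 symbols matched 1 row. They are Afp, Gpc3, H19, Igf2, Dlk1, Golm1, Tff3, Ly6d and Cd24a. All 4 animals were male C57BL/6J mice aged 18 weeks that had been fed the FAT-MASH diet, which is used to model metabolic dysfunction-associated steatohepatitis (MASH), and had been treated with resolvin D1 (RvD1), a lipid mediator of the resolution of inflammation. They form a single group and are numbered 1 to 4 as labelled. Livers of mice on the diet alone, or on a control diet, were not analysed here, so an effect of the diet or of RvD1 cannot be read from these values. In whole tissue, fewer cells of a type and less RNA per cell cannot be told apart.

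During development hepatoblasts and early hepatocytes express a set of genes that is largely shut down after birth. The set includes alpha-fetoprotein, the glypican Gpc3 and the imprinted genes H19, Igf2 and Dlk1, which sit in clusters where the parental origin of an allele decides whether it is transcribed. Several of these genes are known to return in regenerating liver and in hepatocellular carcinoma. A second set, here Golm1, Tff3, Ly6d and Cd24a, encodes surface and secretory proteins of epithelial, progenitor or lymphoid cells that are known from diseased liver, biliary epithelium or mucosa.

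The deposited table does not name its unit. Its values were taken as FPKM, fragments scaled by transcript length and by library size, a reading that rests on the quantification program named in the processing notes and on the values. On this scale levels of different genes are compared per length. A gene counted as expressed from a mean of 1 FPKM upwards, which covered 10541 rows or 43.7% of the table. By this measure 7 of the 9 genes were expressed, and Igf2 and Dlk1 were not. The 7 fell into a high pair and a low group. Ly6d had a mean of 35.0 ± 17.6 FPKM and Cd24a 13.2 ± 3.06 FPKM (each SD, n = 4). Tff3, Gpc3, Golm1, H19 and Afp had means between 1.41 and 3.21 FPKM, below the median of 7.83 FPKM over expressed genes. Ly6d was higher than 82.6% of expressed genes and Cd24a than 64.4%, whereas Afp was higher than only 6.19%. In the order of means, Ly6d and Cd24a did not overlap, since the lowest Ly6d value (21.8 FPKM) lay above the highest Cd24a value (17.6 FPKM). The lowest Cd24a value (10.5 FPKM) lay above every value of the genes below it. The 5 genes of the low group overlapped with their neighbours in the order, and Igf2 overlapped with Dlk1.

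**Figure D1:**
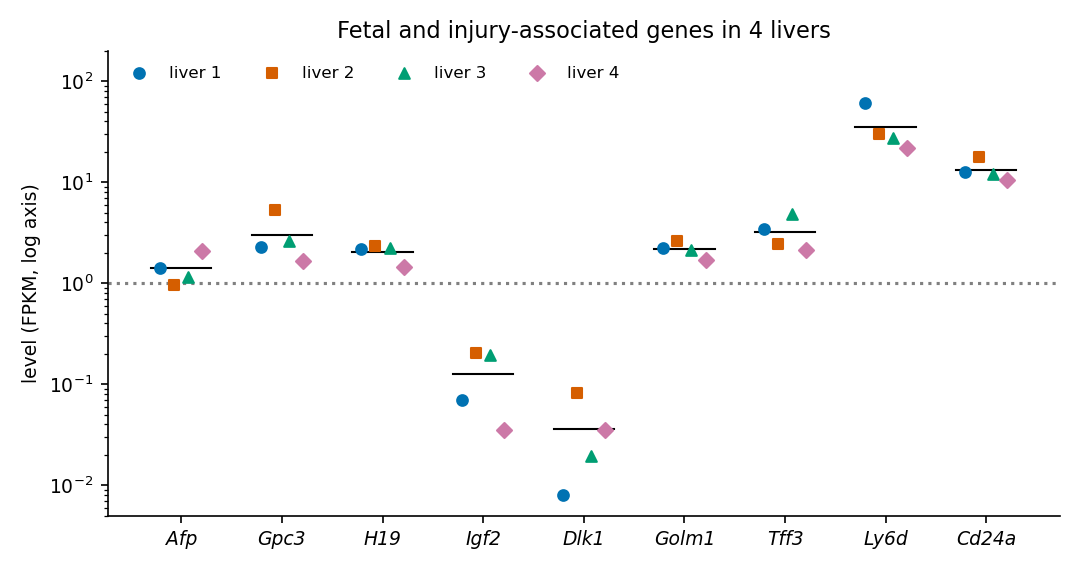
Level of the 9 genes in each liver (FPKM, log axis). Each symbol is 1 liver, the horizontal bars are means of 4 livers and the dotted line marks 1 FPKM. Ly6d and Cd24a lie above 10 FPKM in all livers, and Igf2 and Dlk1 lie below 0.3 FPKM in all livers.

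Total depth was estimated at 17.8 to 20.1 M fragments per liver (M, mega), from low values within a fixed window. The window itself bounds the result, so the estimate is rough and not an independent measure of depth. All fragment numbers and counting errors given here rest on it. The summed FPKM of the livers ranged from 516816 to 570681, the highest in liver 4. Among adult hepatocyte transcripts, Apoa1 was at 12970 ± 1593 FPKM and Ttr at 5394 ± 1006 FPKM (each SD, n = 4). Alb was listed at 0 in all livers, which in this table can be a failed estimate. Liver 2 stood apart in acute phase transcripts. The summed level of 10 such genes was 11783 FPKM there and 3232 to 4483 FPKM in the other livers.

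The regions around the start of transcription of 3 of the genes are shown, those of the expressed members with an entry in the RefSeq table of promoters. Each is the RefSeq window of 250 bases before to 50 bases after the annotated start (build GRCm38.p6), on the strand of the gene. The table of promoters had entries for 5 of the 9 genes, namely Afp, Igf2, Dlk1, Golm1 and Gpc3. Capitals mark matches on either strand to TATAAA, known as the TATA box, to GTTAAT, the core of an HNF1 site, to GGGCGG, the GC box bound by Sp1 factors, to CCAAT, which is bound by NF-Y, to TTCNNNGAA of the STAT type or to TGANTCA of the AP-1 type. Afp lies at chr5:90490464-90490763 on the plus strand, Gpc3 at chrX:52613925-52614224 on the minus strand and Golm1 at chr13:59675735-59676034 on the minus strand.
Afp: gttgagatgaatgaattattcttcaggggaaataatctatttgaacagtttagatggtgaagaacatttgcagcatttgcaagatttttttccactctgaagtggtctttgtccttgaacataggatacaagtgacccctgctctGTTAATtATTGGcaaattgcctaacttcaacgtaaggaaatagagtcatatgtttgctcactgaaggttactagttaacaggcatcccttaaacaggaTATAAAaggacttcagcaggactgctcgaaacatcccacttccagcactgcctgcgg
Gpc3: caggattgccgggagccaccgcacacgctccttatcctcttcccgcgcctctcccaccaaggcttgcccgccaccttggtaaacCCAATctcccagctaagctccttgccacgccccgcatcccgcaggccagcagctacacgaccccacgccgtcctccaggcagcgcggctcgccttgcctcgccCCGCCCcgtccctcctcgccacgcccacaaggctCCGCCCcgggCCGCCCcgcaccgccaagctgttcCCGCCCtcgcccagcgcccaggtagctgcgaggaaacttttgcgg
Golm1: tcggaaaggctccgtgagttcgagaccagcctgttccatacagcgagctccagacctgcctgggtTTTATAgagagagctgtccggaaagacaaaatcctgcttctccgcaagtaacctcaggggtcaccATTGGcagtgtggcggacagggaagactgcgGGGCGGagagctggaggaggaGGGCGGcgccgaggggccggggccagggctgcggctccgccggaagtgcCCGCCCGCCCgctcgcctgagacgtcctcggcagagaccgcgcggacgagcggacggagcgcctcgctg

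The 3 windows differed in composition. The Afp window had 40.0% G and C and 3 CpG dinucleotides, against medians of 52.7% and 7 over all 32851 windows. The Gpc3 window had 70.7% and 30 CpG, and the Golm1 window 67.0% and 30 CpG. The 4 Igf2 windows, of a gene with the same highest and lowest liver as Gpc3 and Golm1, had 49.7% to 64.7% and 2 to 24 CpG. Afp had 1 TATA box match that began 30 bases before the GENCODE start and 7 bases before the RefSeq start, and 1 HNF1 core match, separated by 1 base from a reversed CCAAT box. HNF1 factors are hepatocyte regulators known to act at the Afp promoter. A TATA box match was present in 13.6% of all windows and an HNF1 core match in 7.10%. The Gpc3 and Golm1 windows each had 4 GC box matches, which 35.7% of all windows held at least once, and each had a CCAAT box match, which 37.4% held. In Golm1, 2 of the GC box matches overlap in the run of capitals near the start, and a reversed TATA box lay 185 bases before the RefSeq start. No letters of the STAT type (in 8.30% of all windows) or of the AP-1 type (7.81%) were found in the 3 windows. A match is a sequence of letters and was not tested as a binding site.

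Afp encodes alpha-fetoprotein, the main plasma protein of the fetus and the fetal relative of albumin. The gene (XLOC_015933, chromosome 5, 90490714 to 90508907) stood at 1.41, 0.969, 1.15 and 2.10 FPKM in livers 1 to 4, a mean of 1.41 ± 0.497 FPKM (SD, n = 4). Liver 4 was the highest and liver 2 the lowest, with a ratio of 2.17 between them. At the estimated depth these levels rest on about 52.8, 34.7, 41.4 and 69.6 fragments, with a counting error of up to 17.0% per liver. The neighbouring genes of the same family are adult plasma proteins. Afm (afamin), the next gene on the chromosome, was 63.8 ± 5.50 FPKM, and Gc (vitamin D binding protein) was 3480 ± 194 FPKM (each SD, n = 4). Afm was between 33.3 and 67.4 times the level of Afp within a liver. The spread of Afp was wider than that of either relative, with an SD of log2(FPKM + 1) of 0.28 against 0.12 for Afm and 0.08 for Gc. Without liver 4 the SD of Afp was 0.15. Summed adult hepatocyte markers had the same extremes as Afp, with 41420 FPKM in liver 4 and 31378 FPKM in liver 2, and 12 of the 13 symbols of that list were expressed. The part of hepatocyte content in the Afp values was not tested.

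Gpc3 encodes glypican 3, a heparan sulphate proteoglycan anchored to the cell surface and used as a marker of hepatocellular carcinoma. It stood at 2.30, 5.34, 2.65 and 1.68 FPKM in livers 1 to 4, with a mean of 2.99 ± 1.62 FPKM (SD, n = 4). Liver 2 was 2.02-fold above the next highest liver and 3.19-fold above liver 4. These levels rest on about 60.1 to 207 fragments per liver for the longer of 2 annotated transcripts and 50.04 to 172 for the shorter, a counting error of at most 14.1%. The deposited span (XLOC_023675, chromosome X, 52272427 to 52619047) also covers A630012P03Rik, Mir6384 and Mir717, which were listed at 0 in all livers. The SD of log2(FPKM + 1) was 0.53, and it was 0.23 without liver 2.

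Among glypicans, Gpc3 was not the most abundant. Its neighbour on the chromosome, Gpc4, had 14.1 ± 2.24 FPKM and Gpc1 had 12.4 ± 1.10 FPKM (each SD, n = 4), while Gpc6 and Gpc2 were below 1 FPKM on average and Gpc5 was listed at 0 in all livers. Gpc4 exceeded Gpc3 2.97-fold in liver 2 and 9.67-fold in liver 4. The pair did not keep the same order of livers, since Gpc4 was highest in liver 4 (16.2 FPKM), close to liver 2 (15.9 FPKM), and Gpc3 was lowest there. Gpc6, although low, was highest in liver 2 like Gpc3, at 1.08 FPKM against 0.401 to 0.655 FPKM in the other livers.

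**Figure D2:**
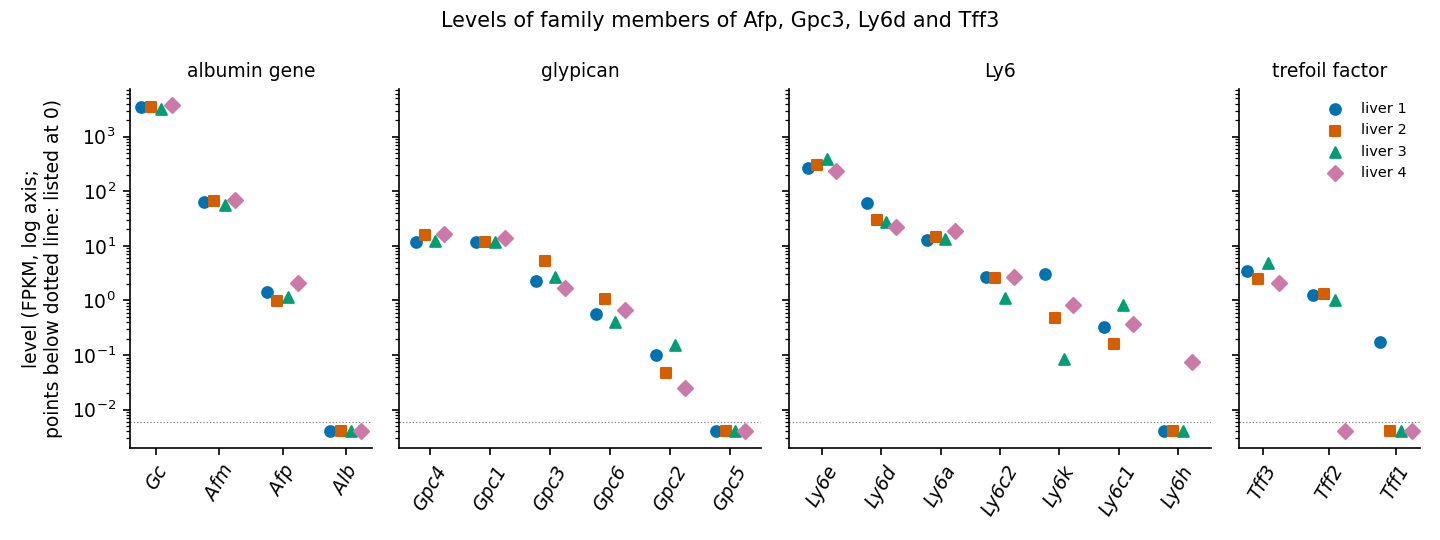
Levels of the genes related to Afp, Gpc3, Ly6d and Tff3 in each liver (FPKM, log axis). Each symbol is 1 liver and points below the dotted line are listed at 0. Gc and Afm lie far above Afp, Gpc4 and Gpc1 lie above Gpc3, and Ly6e is the only Ly6 gene above Ly6d in all livers.

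The 3 imprinted genes were low. H19, a long non-coding RNA and the host of Mir675, stood at 2.20, 2.34, 2.22 and 1.45 FPKM in livers 1 to 4 (XLOC_020452, chromosome 7, 142575530 to 142578146). Livers 1 to 3 differed by less than their estimated counting error of about 10.3% to 10.6%. They had a mean of 2.25 ± 0.0742 FPKM (SD, n = 3), and liver 4 lay below all of them, at 0.646 of that mean. The estimated number of fragments in liver 4 was 53.9, against 89.2 to 93.6 in the other livers. Without liver 4 the SD of log2(FPKM + 1) fell to 0.03 from 0.20.

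Igf2, the fetal growth factor that lies beside H19, stood at 0.0693, 0.205, 0.195 and 0.0354 FPKM in livers 1 to 4. Livers 2 and 3 were high and livers 1 and 4 low, but the values correspond to at most 17.8 fragments for the longest of 5 annotated transcripts and at most 1.77 for the shortest. The span of Igf2 (chromosome 7, 142650768 to 142670356) is shared with its antisense gene Igf2os and with Mir483, both listed at 0. In GENCODE vM21, 3596 of its 5249 exonic bases are also exonic on the same strand in the protein-coding gene Gm49394, which has no row in the table, and 98 are exonic in Igf2os. How the authors' counting shared such reads is not given in the sources used here, and reads of the 2 strands cannot be told apart where the counting is not known to use strand. H19 exceeded Igf2 by 11.4-fold to 41.1-fold within a liver. Dlk1, a surface protein of hepatoblasts (chromosome 12, 109452823 to 109463336), was at 0.00792, 0.0812, 0.0194 and 0.0351 FPKM. These levels amount to at most 6.94 fragments, and in liver 1 to less than 1, so an order of the livers was not detectable at this depth. Meg3, a neighbour of Dlk1 in the same imprinted cluster, was at 0.806, 0.460, 0.559 and 0.0524 FPKM in livers 1 to 4, lowest in liver 4. Rian, of the same cluster, was at 0.152, 0.0364, 0.142 and 0.109 FPKM, lowest in liver 2.

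A list of 15 imprinted growth genes, which includes these 3, had 14 symbols in the table. Of these, 6 were expressed. Slc38a4, an amino acid transporter of hepatocytes, stood far above the others at 388 ± 50.5 FPKM, followed by Sgce at 10.6 ± 1.94 FPKM (each SD, n = 4). The remaining 3 besides H19 were Mest, Grb10 and Cdkn1c, with means of 1.39 to 1.56 FPKM. Liver 2 was the highest in 5 of the 6 expressed genes and liver 4 the lowest in 4 of 6, against 22.0% and 18.1% of all expressed genes. Mest, for instance, was 2.47 FPKM in liver 2 and 0.989 FPKM in liver 4. The median SD of the 6 genes was 0.20 and that of all expressed genes 0.16.

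Several other genes of the insulin-like growth factor system were far above Igf2. Igf1, the adult hepatic ligand, was 153 ± 27.4 FPKM (SD, n = 4), between 694 and 4973 times Igf2 within a liver. Of 13 genes in this list 11 were expressed, and 7 of these 11 had an SD of at least 0.25, against 18.3% of expressed genes. The binding proteins Igfbp4, Igfbp2 and Igfbp7 had 975 ± 137, 461 ± 117 and 343 ± 61.5 FPKM (each SD, n = 4). Igf2r, the receptor that clears Igf2, had 5.62 ± 0.565 FPKM, while the signalling receptor Igf1r was below 1 FPKM, at 0.303 ± 0.0775 FPKM (each SD, n = 4).

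Golm1 encodes a Golgi membrane protein, also called GP73, that is known as a serum marker of liver disease. It stood at 2.21, 2.60, 2.15 and 1.70 FPKM in livers 1 to 4 (XLOC_005788, chromosome 13, 59634996 to 59675784), a mean of 2.16 ± 0.371 FPKM (SD, n = 4). Liver 2 was the highest and liver 4 the lowest, with a ratio of 1.53. The SD of log2(FPKM + 1) was 0.17, near the median of 0.16, and 0.11 without liver 4. In GENCODE vM21, 1297 of its 4090 exonic bases are also exonic in Naa35 on the opposite strand. The deposited spans of these genes do not overlap, and Naa35 was at about 11 FPKM in livers 2 and 4 and at 11.6 and 11.5 FPKM in livers 1 and 3.

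Tff3 encodes trefoil factor 3, a small peptide secreted with mucus. It stood at 3.45, 2.42, 4.85 and 2.11 FPKM in livers 1 to 4 (XLOC_009310, chromosome 17, 31125306 to 31129611), a mean of 3.21 ± 1.24 FPKM (SD, n = 4). Liver 3 was the highest, 2.30-fold above liver 4. The transcript has only 493 bases, so these levels rest on about 10.98 to 27.4 fragments and a counting error of 19.1% to 30.2%. The coefficient of variation between livers was 38.5%. Tff2, the next gene, was at 1.27, 1.29, 1.00 and 0 FPKM, and Tff1 was at 0.172 FPKM in liver 1 and listed at 0 in the others. The SD of Tff3 was 0.41, and 0.27 without liver 3.

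Ly6d had the highest level of the 9 genes. It encodes a small surface protein of the Ly6 family, held by a lipid anchor and known from early B lymphoid cells and squamous epithelium. The gene (XLOC_007439, chromosome 15, 74762056 to 74763567) stood at 61.0, 29.8, 27.5 and 21.8 FPKM in livers 1 to 4. Liver 1 was 2.05-fold above the next highest liver, and the other livers had a mean of 26.4 ± 4.12 FPKM (SD, n = 3). With about 210 to 666 fragments per liver, the counting error was at most 6.89%. The SD of log2(FPKM + 1) was 0.62, larger than that of 99.2% of expressed genes, and it was 0.23 without liver 1, below the 0.63 of Gpc3 and the 0.49 of Tff3 without that liver.

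The Ly6 genes did not share this pattern as a group. Ly6e was higher than Ly6d in every liver, at 263, 307, 381 and 235 FPKM, and was highest in liver 3. Ly6a, known as Sca-1, was 14.8 ± 2.59 FPKM (SD, n = 4) and highest in liver 4. Ly6k, which lies within 60 kb of Ly6d, was singled out after its values were seen: it was at 3.07, 0.481, 0.0852 and 0.835 FPKM and was likewise highest in liver 1.

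Markers of cells in which Ly6d is known are given beside it. The B and plasma cell list had 3 of 6 genes expressed and summed to 3.90 FPKM in liver 1 and to 5.38 to 5.43 FPKM in the others, so its sum was lowest where Ly6d was highest. Its highest gene, Cd79b, had 1.35 ± 0.347 FPKM (SD, n = 4), and Cd79a was highest in liver 1, at 1.25 FPKM against 1.07 to 1.15 FPKM in the others. Of 5 plasmacytoid dendritic cell markers 3 were expressed, and the list summed to 218, 207, 201 and 226 FPKM in livers 1 to 4, most of it from Bst2. Siglech was at 0.411 FPKM in liver 1 and 0.148 to 0.267 FPKM in the others, whereas Bst2 was highest in liver 4, Irf8 and Ccr9 in liver 3 and Tcf4 in liver 2. Of 7 markers of stratified and gut epithelium 0 were expressed. Krt5, Krt14 and Krt13, which mark stratified epithelium, and Cdx2, which marks intestinal epithelium, were listed at 0 in all livers. Vil1 was at 0.107, 0.158, 0.265 and 0.0969 FPKM in livers 1 to 4, and Muc2 and Krt20 were at most 0.0210 and 0.0294 FPKM, both in liver 3. Summed erythroid markers were highest in liver 1 (870 FPKM) and lowest in liver 3 (372 FPKM), and the part of these cell types in the Ly6d values was not tested.

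Cd24a encodes a short, heavily glycosylated surface protein of progenitor cells, biliary epithelium and leucocytes. It stood at 12.7, 17.6, 12.1 and 10.5 FPKM in livers 1 to 4 (XLOC_001450, chromosome 10, 43579169 to 43584265), a mean of 13.2 ± 3.06 FPKM (SD, n = 4). Liver 2 was 1.39-fold above the next highest liver, and the other livers had a mean of 11.8 ± 1.13 FPKM (SD, n = 3). The processed pseudogenes Gm6212 and Gm15352 match stretches of its transcript with 96.8% and 92.3% identity over 218 and 259 bases, and neither has a row in the table, so reads of the copies may have been counted with it. The SD of log2(FPKM + 1) was 0.29, and 0.13 without liver 2.

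Biliary and progenitor markers were set beside Cd24a. Of 15 genes 12 were expressed, led by Spp1 (osteopontin) at 191 ± 18.4 FPKM, with Cdh1 at 12.8 ± 2.11 and Mmp7 at 7.08 ± 2.02 FPKM (each SD, n = 4). Of the 12, 2 were highest in liver 2 and 6 were lowest in liver 4, against 22.0% and 18.1% of expressed genes. Neutrophil markers, a further known site of Cd24a, summed to 18.6 FPKM in liver 2 and to 8.39 to 11.6 FPKM in the others, and 2 of 5 genes in the table were expressed. S100a8 and S100a9, which supplied most of that sum, had 5.10 ± 1.97 and 5.44 ± 2.33 FPKM (each SD, n = 4). They and Retnlg were highest in liver 2. The receptor genes, below 1 FPKM on average, were not: Csf3r was highest in liver 3 (1.15 FPKM, against 0.827 FPKM in liver 2). Cxcr2 was lowest in liver 2 (0.0194 FPKM). The part of neutrophils in the Cd24a values was not tested.

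The spread between animals was then compared with that of all expressed genes. All 7 expressed members had an SD above the median of 0.16, which holds by construction for 50% of genes. An SD of at least 0.25 was found for 5 of 7, namely Ly6d, Gpc3, Tff3, Cd24a and Afp, against 18.3% of expressed genes. Without liver 2 only Ly6d, Tff3 and Afp were past 0.25, against 18.5% of expressed genes. Without liver 4, Afp, H19 and Golm1 were at or below the median of the remaining livers, which left 4 of 7 above it. The highest liver was at least 2-fold above the lowest for 4 of 7 (Ly6d, Gpc3, Tff3 and Afp), against 6.38% of expressed genes, and without liver 2 for 2 (Ly6d and Tff3), against 4.06% of expressed genes. Within classes of like level, 0.682% of 5131 genes from 5 to 50 FPKM had a larger SD than Ly6d and 9.47% a larger SD than Cd24a. Among 4003 genes from 1 to 5 FPKM the share was 1.10% for Gpc3, 3.50% for Tff3, 14.2% for Afp, 35.1% for H19 and 48.9% for Golm1.

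**Figure D3:**
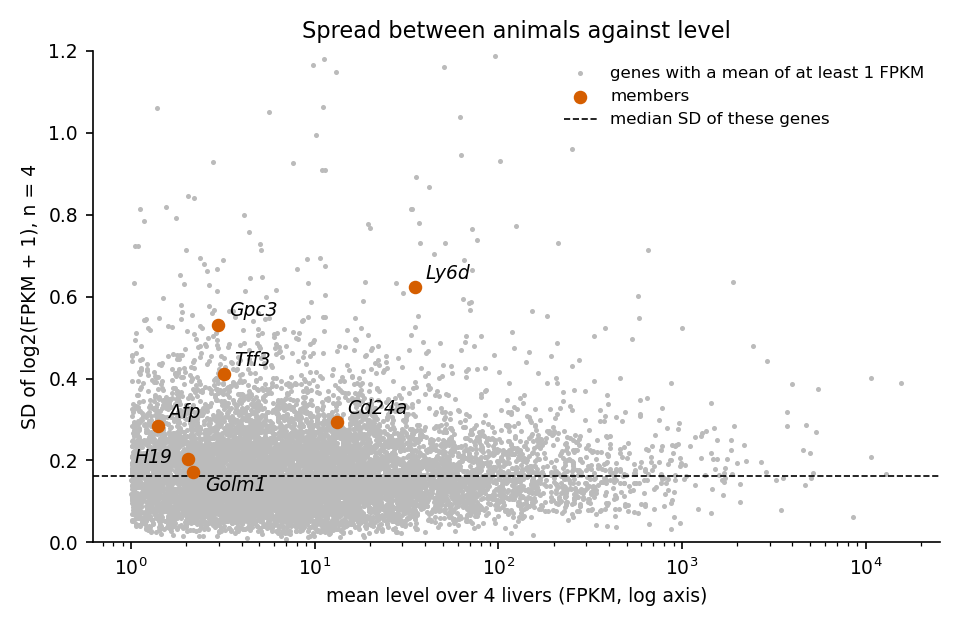
SD of log2(FPKM + 1) over 4 livers against the mean level (FPKM, log axis) for all expressed genes. Grey points are genes, orange points the 7 expressed members and the dashed line the median SD of 0.16. Another 20 genes lie above the plotted range of 1.2. Ly6d and Gpc3 stand in the upper margin, and H19 and Golm1 lie close to the median.

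By Dixon's ratio, the gap of the most extreme liver over the range of all 4, liver 4 stood apart in H19 and in no other member, so 1 of 7 was past the critical value against 5.46% of expressed genes.

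The wide members had their highest values in different livers. Liver 2 was the highest and liver 4 the lowest in 5 of the 9 genes (Gpc3, H19, Igf2, Golm1 and Cd24a). Among the 7 expressed members these were 4, and among all expressed genes 5.69% had this order. In H19 and Golm1 the lead of liver 2 was small, at 1.05-fold and 1.18-fold over the next liver, and in Igf2 it was 1.05-fold at very few fragments. Ly6d was highest in liver 1, Tff3 in liver 3 and Afp in liver 4. Liver 4 was the lowest in 6 of the 7 expressed members, with Afp as the exception, against 18.1% of expressed genes. Rescaling the livers to the same sum, or by median ratios, gave the same 5 genes with liver 2 highest and liver 4 lowest.

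The distance between 2 patterns was taken as the root mean square difference of their deviations from their own means on the log2(FPKM + 1) scale, over 4 livers. Over the 21 pairs of expressed members it ranged from 0.07 for H19 and Golm1 to 0.70 for Gpc3 and Ly6d, with a median of 0.46. Golm1 and Cd24a (0.12), H19 and Cd24a (0.17) and Gpc3 and Cd24a (0.22) were the next closest pairs. Afp was at least 0.39 from every other member. A small distance is favoured by a small spread, as in H19 and Golm1.

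**Figure D4:**
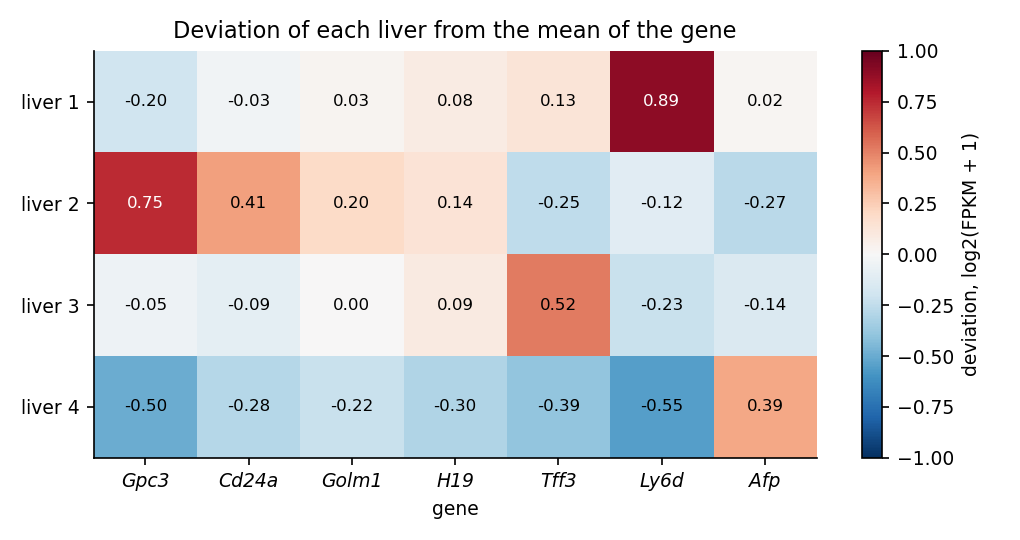
Deviation of each liver from the mean of the gene on the log2(FPKM + 1) scale for the 7 expressed members. Red is above and blue below the mean, and the printed values are the deviations. Gpc3, Cd24a, Golm1 and H19 are highest in liver 2 (0.75, 0.41, 0.20 and 0.14), Ly6d is highest in liver 1 (0.89), Tff3 in liver 3 (0.52) and Afp in liver 4 (0.39).

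The nearest genes in the whole table were named for the 5 members with an SD of at least 0.25. For Ly6d they were AI662270, Tat and Rnf141, at distances of 0.19 each. Tat, tyrosine aminotransferase of adult hepatocytes, was at 780, 522, 505 and 335 FPKM in livers 1 to 4 and had the same order of livers as Ly6d. For Gpc3 they were Dpep1 (0.11), 1810021B22Rik (0.11) and LOC102636514 (0.12). Dpep1, a membrane dipeptidase, was at 1.64, 3.62, 2.24 and 1.26 FPKM. For Cd24a they were Slc22a17, Htra1 and C730036E19Rik, each at 0.03. Htra1, a secreted serine protease, was at 5.75, 8.62, 5.38 and 4.70 FPKM. For Tff3 they were Atxn7l1 and Gpatch4 (0.04 each) and Pagr1a (0.06). For Afp they were Eci2, Srp19 and Rabl3 (0.03 each), of which Eci2, an enzyme of fatty acid oxidation, was at 133, 112, 115 and 170 FPKM. With 4 livers and 10541 candidate genes such likeness is a description of these animals.

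Genes known to control the fetal set were examined as a list of 18 symbols, all in the table, of which 11 were expressed. Zhx2 and Zbtb20, repressors of Afp after birth, had 5.91 ± 0.765 and 5.86 ± 0.698 FPKM (each SD, n = 4). Zbtb20 was lowest in liver 2 (4.85 FPKM), as Afp was, and Zhx2 was lowest in liver 1 (4.94 FPKM). The hepatocyte factors Cebpa, Cebpb and Hnf4a had 194 ± 67.8, 185 ± 71.3 and 118 ± 27.2 FPKM (each SD, n = 4). Foxa1, an activator of hepatic genes in development, was 5.78, 5.75, 7.44 and 10.03 FPKM in livers 1 to 4, with liver 4 highest and liver 2 lowest, as in Afp. Lin28a, Lin28b and Igf2bp1, RNA-binding proteins of fetal cells, were listed at 0 in all livers. Igf2bp3 and Hmga2, of the same fetal type, were at 0.170 ± 0.0350 and 0.0195 ± 0.0104 FPKM (each SD, n = 4). Of 11 expressed regulators 7 had an SD of at least 0.25, against 18.3% of expressed genes, and 1 was highest in liver 2, against 22.0%.

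Enzyme isoforms typical of fetal liver and tumours were expressed in 8 of 10 cases. Aldoa had 135 ± 10.4 FPKM, Acsl4 22.3 ± 0.693, Pkm 11.2 ± 1.68 and Scd2 9.04 ± 1.21 FPKM (each SD, n = 4). Their median SD was 0.14, and 2 of the 8 had an SD of at least 0.25, against 18.3% of expressed genes, among them Akr1b8 at 2.91, 4.09, 3.51 and 1.59 FPKM. Liver 2 was the highest in 5 of the 8, against 22.0% of expressed genes.

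Marker lists that differed between the livers are given beside the order of Gpc3, Cd24a, Golm1 and H19. Stellate cell and fibroblast markers, all 7 of them expressed, summed to 330 FPKM in liver 2 and to 209 to 260 FPKM in the others, and 5 of 7 were highest in liver 2, against 22.0% of expressed genes. All 10 acute phase genes were highest in liver 2, against the same 22.0%, with a median deviation of 1.05 on the log2 scale. Biliary and progenitor markers summed to 241 FPKM in liver 2, within the range of 235 to 279 FPKM of the others, although Spp1 supplied most of that sum. The part of these lists in the order of the members was not tested.

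**Figure D5:**
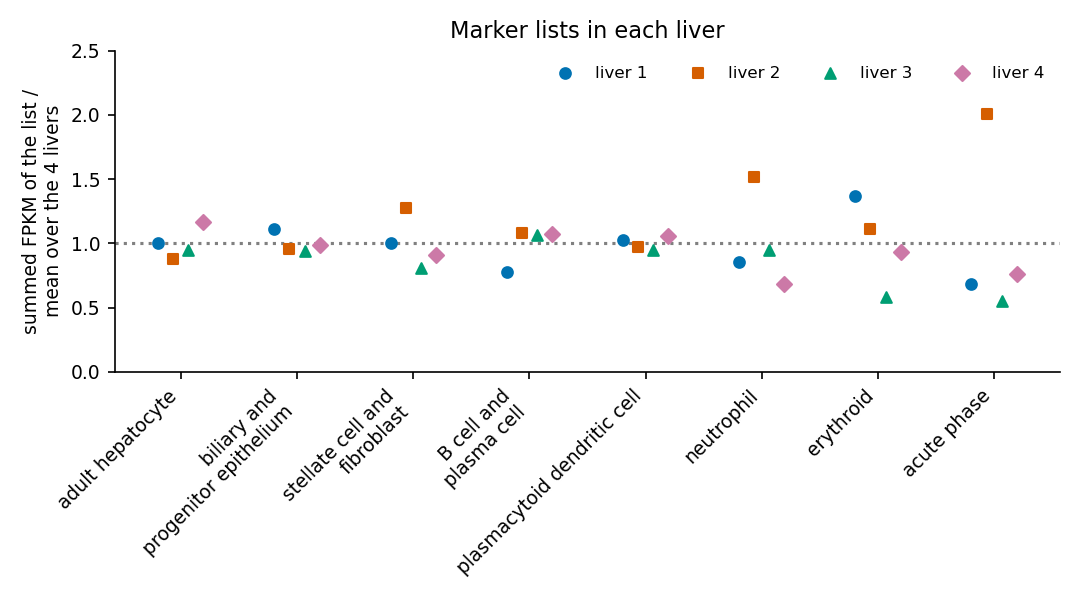
Summed FPKM of marker lists in each liver, divided by the mean of the list over the 4 livers. Each symbol is 1 liver. Liver 2 stands highest for acute phase (2.00), neutrophil (1.51) and stellate cell and fibroblast (1.28) genes, and liver 1 stands lowest for B cell and plasma cell genes (0.775).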

How the data were processed

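RNA from 4 livers was measured by poly(A) RNA sequencing, per the labels' protocols. The deposited file does not name its unit, and its values were taken as FPKM made by the authors: per the submitters' processing notes the tools were FastQC 0.10.1, Trim Galore 0.6.3, cutadapt, STAR 2.7.6a and Cufflinks 2.2.1 and the build mm10, and the identifiers have the Cufflinks form. The annotation, strand setting and options are not given in the sources used here. Columns were matched through sample descriptions, with 0 left over. Starts were raised by 1 to count from 1.

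The members and the 20 gene lists (151 symbols, 147 in the table) were chosen with earlier results of these data known. Spread was the SD of log2(FPKM + 1), which compresses differences between low values. A single group allows no test between groups, so no p-value is given. Depth was estimated from genes with 1 GENCODE vM21 basic transcript over 800 bases. It came from the median of FPKM times length less 200 bases, among products between 25 and 75, read as 1 fragment. Products outside that window were dropped, so the window bounds the estimate on both sides. The fragment numbers cover counting error only and are approximate, most so for short transcripts. With no read counts, copies of a library could not be tested by counts. Named genes were the members, the 4 highest genes and genes at or near 0 of each list, genes sharing a member's span, and the 3 nearest patterns of members with an SD of at least 0.25. Other genes named as examples were chosen after their values were seen. Alternatives were pseudocounts, scaling, filters and leaving out each liver. Similar transcripts came from blastn 2.17.0, other values from Python 3.11.15, numpy 2.4.6 and pandas 2.3.3. The SD, Dixon's ratio and the pattern distance were tested on simulated data with normal scatter of the same SD in every gene. The depth estimate and counting errors were not tested in this way.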

Additional observations from a re-analysis of the deposited data

Results flagged for a closer look

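H19 was the only one of the 9 genes in which 1 liver stood apart by Dixon's ratio, the gap of the most extreme liver divided by the range of all 4. Its ratio on the log2(FPKM + 1) scale was 0.865, past the 95% critical value for 4 samples, with liver 4 on the low side (1.45 FPKM, with the other livers at most 2.34 FPKM). The ratio was between 0.854 and 0.876 over the pseudocounts and scalings tried. Among all expressed genes 5.46% were past the critical value, and chance gives about 1 in 20, so 1 of 7 expressed members is near the background. For Ly6d and Gpc3 the ratios were 0.699 and 0.641.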

How the results depend on the processing

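The number of members with a mean of at least 1 FPKM was 7 under both scalings and without each liver. A pseudocount of 5 lowered the median SD of expressed genes to 0.11 and the members with an SD of at least 0.25 to 2 (Gpc3 and Ly6d). That number was 3 to 5 when a liver was left out, the fewest without liver 2. The share of expressed genes past 0.25 was then 15.4% (without liver 3) to 23.3% (without liver 1), and 18.5% without liver 2. The members above the median SD were 4 to 7 when a liver was left out, the fewest without liver 4. With no filter beyond a value above 0, 11.3% of genes were past the critical value of Dixon's ratio and 17.8% had a highest liver at least 2-fold above the lowest. With a liver left out that share was 3.77% to 4.91% of expressed genes, and 2 to 3 members were past 2-fold, the fewest without liver 2. Rescaled to the same sum, Afp was below an SD of 0.25 and its ratio of highest to lowest liver was 1.98. The share of expressed genes with an SD of at least 0.25 moved as well, to 5.39% with a pseudocount of 5. With a pseudocount of 0.1 it was 29.8%, with 6 members past 0.25, and the SD of Afp was 0.45. Single members' SDs moved with the pseudocount by over 1.5 times in other cases too, most in Igf2 and Dlk1, and the order of the members by SD changed. Ly6d was above Gpc3 as reported (0.62 and 0.53) and below it with a pseudocount of 0.1 (0.64 and 0.68), and Cd24a likewise against Afp (0.29 and 0.28, then 0.31 and 0.45). Igf2 and Dlk1 were limited by depth, and Tff3 by its short transcript. No paired analysis was possible because there is a single group.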
